A study of Homo sapiens with 6 samples.

Results

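Chromosome 19 away from its ends was examined for lactylation of histone H4 at lysine 5 (H4K5la), which ChIP-seq had mapped in the established hepatocellular carcinoma line PLC/PRF/5. Its members are all peaks on this chromosome that lay over 5 Mb from both ends of the hg38 assembly, taken from 4 peak lists and merged where peaks of different libraries shared at least 1 bp. This gave 2960 regions, of 50382 on all chromosomes under the same rule and 71122 with the chromosome ends included. The lactate group was cultured with 20 mM lactate for 24 h (replicates 2 and 3), and the control group received no lactate (replicates 2 and 3). All 4 libraries share the cell line and the antibody against H4K5la. The labels list an input library for each treatment, which has no peak list and was not analysed here, so input and treatment cannot be told apart. Nothing in the labels says whether replicates came from separate cultures, so the p-values measure the spread between these libraries alone, which may be technical. The lists give positions and enrichment of peaks but no read counts, so sequencing depth is unknown. They do not measure expression either, so the cell type was not checked against markers.

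Lactylation attaches a lactate-derived acyl group to lysine, and on histone tails it is one of several acyl marks that share their target residues with acetylation. Human chromosome 19 is known for its high gene density and for families of duplicated genes that sit in clusters: the KRAB zinc finger repressors that silence transposable elements, the kallikrein serine proteases, the carcinoembryonic antigen and pregnancy glycoprotein genes, the sialic acid receptors (siglecs) and several cytochrome P450 subfamilies. It also carries chromatin regulators, such as the remodelling ATPase SMARCA4, and several microRNA clusters.

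The promoters below show what the mark covered at gene starts, for the best-ranked gene with a start peak in all 4 libraries (LGI4, a secreted factor for nerve myelination), in the control libraries alone (LYPD3, a cell surface protein of epithelia) and in the lactate libraries alone (ZNF765 with its readthrough transcript), and for the best-ranked members of 3 gene families with a start peak in all 4 libraries (ZNF177, CEACAM4 and KLK13). Each is a RefSeq sequence of GRCh38.p14 from 250 bases before to 50 bases after an annotated start, 5′ to 3′, with CG dinucleotides in capitals.
LGI4 (chr19:35135010-35135309, minus strand): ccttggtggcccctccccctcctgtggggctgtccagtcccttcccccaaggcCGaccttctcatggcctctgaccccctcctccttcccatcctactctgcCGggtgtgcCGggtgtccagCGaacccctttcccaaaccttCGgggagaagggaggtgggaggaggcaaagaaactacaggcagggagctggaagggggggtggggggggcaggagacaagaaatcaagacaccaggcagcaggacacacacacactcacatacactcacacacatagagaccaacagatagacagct
LYPD3 (chr19:43465559-43465858, minus strand): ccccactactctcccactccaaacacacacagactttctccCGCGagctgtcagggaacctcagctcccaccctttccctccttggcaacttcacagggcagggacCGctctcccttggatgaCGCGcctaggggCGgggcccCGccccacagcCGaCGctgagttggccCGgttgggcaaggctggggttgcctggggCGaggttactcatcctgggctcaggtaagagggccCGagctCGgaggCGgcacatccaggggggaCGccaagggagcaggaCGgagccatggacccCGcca
ZNF765 (chr19:53394899-53395198, plus strand): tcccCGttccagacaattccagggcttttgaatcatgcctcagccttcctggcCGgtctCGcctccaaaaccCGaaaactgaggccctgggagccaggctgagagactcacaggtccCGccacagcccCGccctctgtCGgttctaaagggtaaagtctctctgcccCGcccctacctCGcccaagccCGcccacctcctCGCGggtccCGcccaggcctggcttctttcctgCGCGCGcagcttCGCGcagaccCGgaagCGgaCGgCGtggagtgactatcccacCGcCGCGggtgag
ZNF177 (chr19:9362763-9363062, plus strand): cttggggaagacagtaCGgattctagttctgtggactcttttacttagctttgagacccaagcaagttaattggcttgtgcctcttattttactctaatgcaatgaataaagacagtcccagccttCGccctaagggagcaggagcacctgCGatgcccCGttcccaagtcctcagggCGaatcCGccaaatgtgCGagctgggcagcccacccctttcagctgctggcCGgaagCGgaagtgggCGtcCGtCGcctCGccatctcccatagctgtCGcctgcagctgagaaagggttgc
CEACAM4 (chr19:41627025-41627324, minus strand): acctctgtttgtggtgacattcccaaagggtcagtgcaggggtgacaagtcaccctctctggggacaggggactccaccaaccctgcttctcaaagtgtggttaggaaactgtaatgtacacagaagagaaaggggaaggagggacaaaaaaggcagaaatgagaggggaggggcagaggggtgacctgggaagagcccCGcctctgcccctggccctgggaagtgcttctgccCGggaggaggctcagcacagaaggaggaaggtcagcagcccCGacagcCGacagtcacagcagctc
KLK13 (chr19:51065043-51065342, minus strand): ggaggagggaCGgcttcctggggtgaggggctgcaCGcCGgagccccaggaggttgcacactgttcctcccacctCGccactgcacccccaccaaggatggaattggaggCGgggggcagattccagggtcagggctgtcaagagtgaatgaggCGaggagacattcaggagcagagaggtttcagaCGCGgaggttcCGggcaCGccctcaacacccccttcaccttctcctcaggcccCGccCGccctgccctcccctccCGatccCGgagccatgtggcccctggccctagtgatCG

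The KLK13 sequence belongs to a start 587 bp inside the outermost end of this kallikrein gene, and all 300 bases lay under a peak in each of the 4 libraries. The LGI4 promoter was covered in full in lactate replicate 2 and in both control libraries, while the peak of lactate replicate 3 ended within the gene and covered 0 of its bases. At LYPD3 a peak covered 0 bases in either lactate library, against all 300 in both control libraries. At ZNF765 the peak of lactate replicate 2 covered 162 bases and that of lactate replicate 3 began downstream. The promoters differed widely in CG content: ZNF765 held 25 CG dinucleotides, LYPD3 17, KLK13 15, ZNF177 14, LGI4 5 and CEACAM4 (a receptor of granulocytes) 4. The motif GGGCGG, the GC box, was found on either strand in ZNF765, LYPD3 and KLK13, and in 64.5% of the 1180 promoters of coding genes on this stretch of chromosome 19.

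Peaks also lay over microRNA hairpins. Mature sequences of the best known of these follow, with the seed (bases 2 to 8) in capitals. They are RefSeq sequences of GRCh38.p14. MIR23A, MIR27A and MIR24-2 shared a peak in every library, as did MIR99B and MIRLET7E, while MIR199A1 shared its peaks with none of these.
hsa-miR-23a-3p: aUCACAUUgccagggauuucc
hsa-miR-27a-3p: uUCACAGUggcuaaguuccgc
hsa-miR-24-3p: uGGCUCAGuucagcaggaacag
hsa-miR-99b-5p: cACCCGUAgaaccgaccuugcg
hsa-let-7e-5p: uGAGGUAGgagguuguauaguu
hsa-miR-199a-5p: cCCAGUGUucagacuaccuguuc
hsa-miR-199a-3p: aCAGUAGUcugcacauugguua

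Of 10 microRNA genes with a peak in all 4 libraries, 8 were matched to hairpins in the sequence table, and no 2 of their 15 mature sequences shared a seed. MIR23A, MIR27A and MIR24-2 lie within chr19:13836287-13836659. They fell under a single peak in each library, 1358 and 956 bp wide in the lactate libraries and 1207 and 1155 bp wide in the control libraries. Its fold enrichment, the authors' height of the peak over local background, was 10.3 and 7.82 with lactate and 4.47 and 4.93 in control libraries. MIR99B and MIRLET7E, of the miR-99 and let-7 families, shared peaks of 364 and 468 bp in the lactate libraries and of 830 and 1362 bp in the control libraries. In these peaks the fold enrichment was 4.68 and 5.5 with lactate against 8.58 and 8.34 in control libraries. Their neighbour MIR125A was reached by the peak of control replicate 3 alone. MIR199A1, inside the dynamin gene DNM2, lay under peaks of 779 and 2088 bp with lactate and of 3327 and 3480 bp in control libraries. A fold enrichment ranks peaks within a list and does not measure a change between lists.

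The first comparison set chromosome 19 beside the other chromosomes. It held 31.6 and 32.0 peaks per Mb in the lactate libraries and 43.9 and 47.2 peaks per Mb in the control libraries. Chromosome 22 came next, with 27.4 and 27.6 peaks per Mb with lactate and 39.3 and 40.7 in control libraries, followed by chromosome 20 (20.6 and 20.6 with lactate, 29.8 and 29.3 in control) and chromosome 17 (19.5 and 19.7 with lactate, 27.9 and 28.5 in control). Chromosome 19 stood first in each of the 4 libraries. It was picked for this density, which is therefore given as a description with no test.

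The order changed when peaks were counted per gene. Chromosome 19 also had the highest density of coding genes, 21.9 per Mb (1067 genes), against 13.1 per Mb on chromosome 17, 9.43 on chromosome 22 and 7.09 on chromosome 20. Per coding gene it held 1.44 and 1.46 peaks with lactate and 2.0 and 2.15 peaks in control libraries, which placed it 14th of 23 chromosomes. Chromosome 22 held 2.90 and 2.92 peaks per gene with lactate and 4.16 and 4.32 in control libraries.

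**Figure D1:**
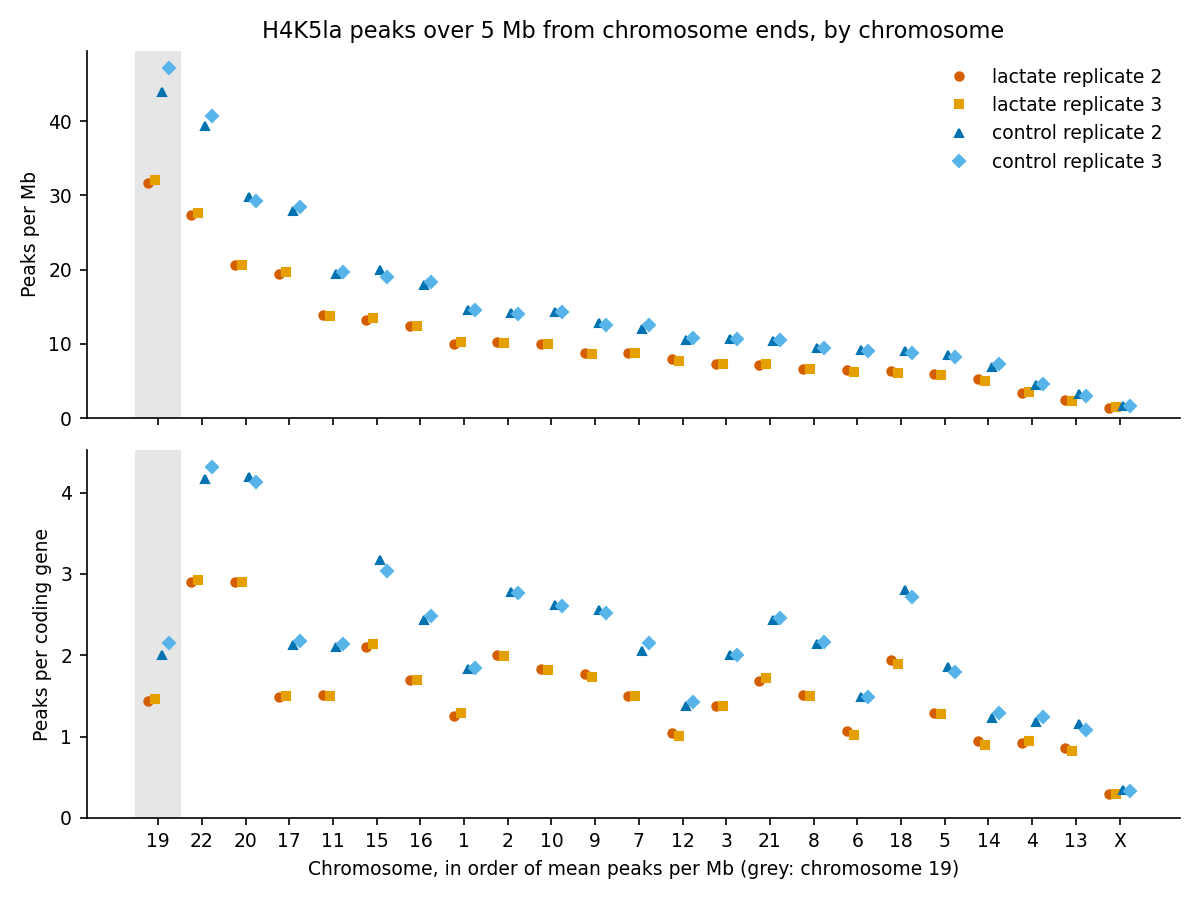
Peaks per Mb (upper panel) and per coding gene (lower panel) over 5 Mb from chromosome ends, for each chromosome and library (circles and squares, lactate replicates 2 and 3; triangles and diamonds, control replicates 2 and 3). Chromosome 19 (grey) is at the top per Mb, at 31.6 to 47.2, and in the middle of the order per gene, at 1.44 to 2.15.

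Peaks of chromosome 19 were also wider and lower than elsewhere within each library. The median width was 450 and 435 bp with lactate and 557 and 534.5 bp in control libraries, against 429 and 417 bp with lactate and 501 and 494 bp in control libraries on the other chromosomes. Peaks of at least 2 kb made up 0.715 and 0.450% of lactate and 4.88 and 3.97% of control peaks on chromosome 19. On the other chromosomes their share was 0.431 and 0.348% with lactate and 2.59 and 2.36% in control libraries. The median fold enrichment was 6.53 and 6.75 with lactate and 6.33 and 6.67 in control libraries, against 7.28 and 7.51 with lactate and 7.19 and 7.81 in control libraries elsewhere. All 4 libraries showed each of these differences, which are descriptions with no test.

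The second comparison asked how chromosome 19 differed between lactate and control cells. Lactate replicates 2 and 3 held 1538 and 1556 peaks there, and control replicates 2 and 3 held 2133 and 2294. The means were 1547 ± 12.7 with lactate and 2213.5 ± 114 in control libraries (SD, n = 2 each), a ratio of 0.699 (two-sided exact permutation p = 0.333, the smallest that 2 libraries against 2 allow). Peaks covered 0.885 and 0.874 Mb with lactate against 1.63 and 1.70 Mb in control libraries, or 1.82 and 1.80% against 3.36 and 3.50% of the 48.6 Mb examined. The ratio of covered length was 0.527 (exact permutation p = 0.333). The groups did not overlap in either measure. When every library was cut to its 37951 best peaks over all chromosomes, the ratio of peak number became 1.01 and that of covered length 0.688.

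Most of the difference lay in wider peaks. Below 500 bp, lactate libraries held 906 and 936 peaks, close to the 912 and 1032 of control libraries. Between 500 bp and 1 kb there were 503 and 486 peaks with lactate against 813 and 832 in control libraries. Between 1 and 2 kb, lactate libraries held 118 and 127 and control libraries 304 and 339. Peaks of at least 2 kb numbered 11 and 7 with lactate and 104 and 91 in control libraries, a ratio of 0.0923 (exact permutation p = 0.333), which was 0.341 once peaks of a library within 1 kb of each other were joined. The longest peak was 3555 and 3490 bp with lactate and 6299 and 7165 bp in control libraries.

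**Figure D2:**
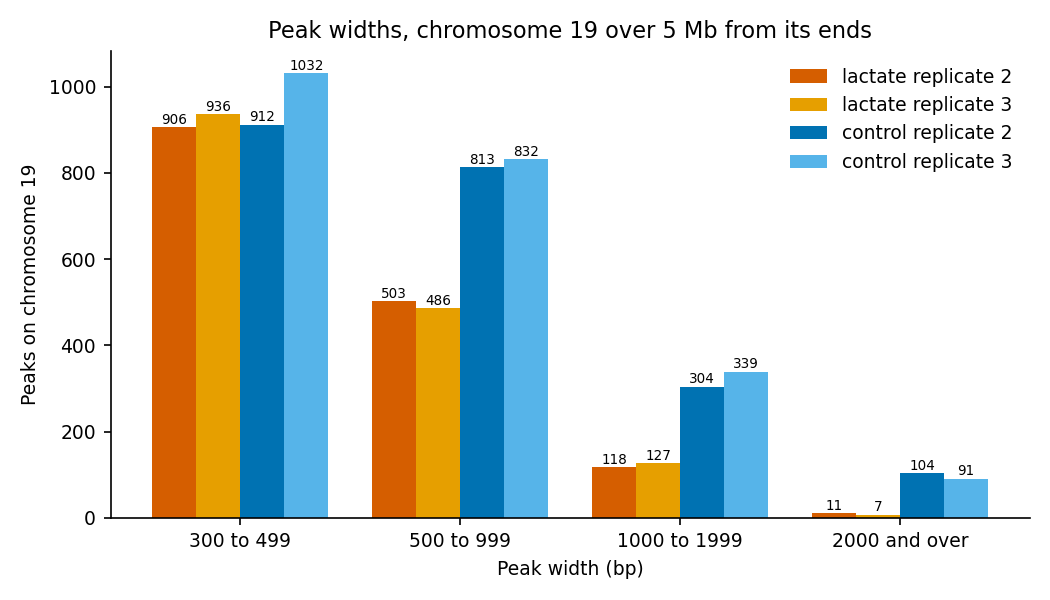
Number of peaks on chromosome 19 by width class (horizontal axis, bp) in each library, with the count above each bar. The narrowest class holds 906 to 1032 peaks in all 4 libraries, and the widest holds 11 and 7 lactate peaks beside 104 and 91 control peaks.

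The ratio of peak number on chromosome 19 was close to that of the other chromosomes. Its share of a library's peaks was 6.10 and 6.19% with lactate and 5.99 and 6.39% in control libraries, so the lactate values fell between the control values (difference -0.0397 percentage points, exact permutation p = 1). Among the other 22 chromosomes the ratio of peak number ran between 0.683 and 0.871 with a median of 0.699, and the ratio of covered length between 0.493 and 0.735 with a median of 0.565. The covered length ratio of chromosome 19, 0.527, lay below that median, and chromosome 22 had the lowest at 0.493.

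Regions were ranked by the narrower of their control widths, and the first 5 lay in coding genes. The first, over AP1M1 (a subunit of the clathrin adaptor complex), spanned chr19:16223692-16229990. It was 1967 and 1467 bp at its widest with lactate, in 3 and 4 separate peaks, and a single peak of 6299 and 5881 bp in control libraries. At CRTC1, a coactivator of CREB that is fused to MAML2 in salivary tumours, the widest lactate peaks were 1135 and 1028 bp against control peaks of 5602 and 5682 bp. The region over LSM4, which binds U6 small nuclear RNA, held lactate peaks of up to 1277 and 1325 bp and control peaks of 5777 and 5468 bp. STRN4, a striatin phosphatase scaffold, held 4 and 4 lactate peaks of up to 1266 and 1800 bp, and control peaks of up to 4950 and 7165 bp. In KDM4B, an H3K9 demethylase gene, 1 and 2 lactate peaks of up to 826 and 776 bp stood in place of control peaks of 5100 and 4873 bp. The choice of these 5 by their width in control cells partly gives the narrower lactate peaks.

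Both control peaks reached 2 kb at 70 regions, of which 64 (91.4%) also had peaks in each lactate library. At these 64 the mean was 1.83 peaks per lactate library, and the widest lactate peak, averaged over libraries, had a median of 1093 bp. Over all 70 regions the mean was 1.12 peaks per control library, and the narrower control peak had a median width of 2610 bp. Of 406 regions whose control peaks were all under 500 bp, 117 (28.8%) had peaks in each lactate library. Both sets were chosen by their control width, and a wide region meets the 1 bp rule for sharing more easily. The shares are therefore not like for like, and their difference was not tested.

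**Figure D3:**
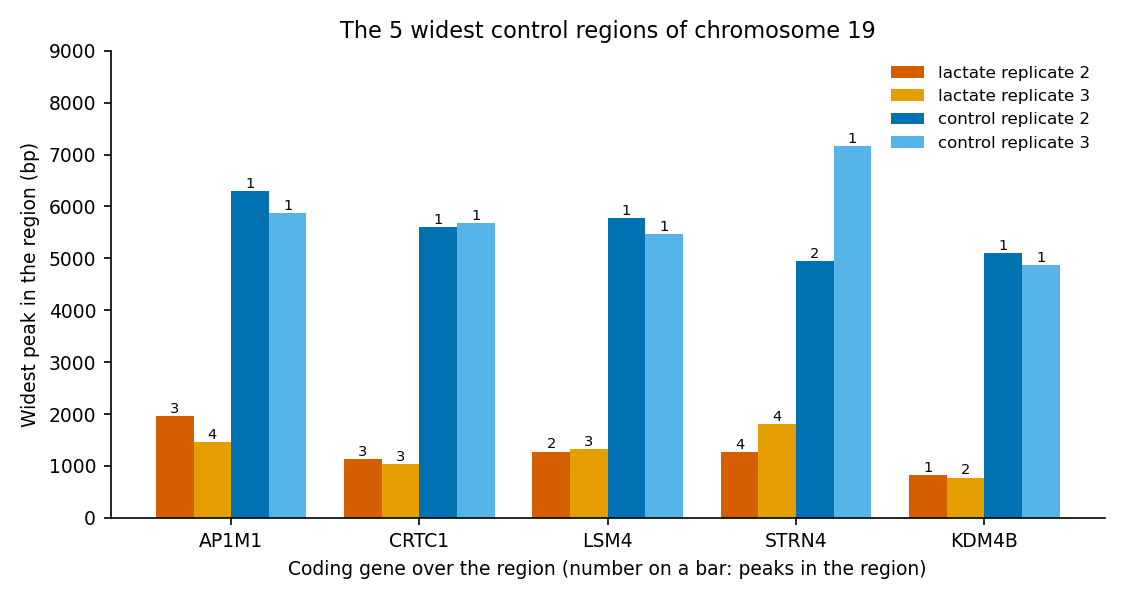
Width in bp of the widest peak in each library at the 5 widest control regions of chromosome 19, named by the coding gene there, with the number of peaks in the region above each bar. Lactate peaks reach 776 to 1967 bp, in 1 to 4 pieces, where control peaks reach 4873 to 7165 bp.

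Along the chromosome the mark was spread unevenly. In 49 bins of 1 Mb, the last cut short by the outer 5 Mb, the 5 richest were 5 to 6 Mb (159 regions), 18 to 19 Mb (152), 38 to 39 Mb (129), 35 to 36 Mb (124) and 49 to 50 Mb (115). The bin at 5 to 6 Mb, with the receptor phosphatase gene PTPRS and the mitochondrial protease gene LONP1, held 87 and 88 peaks with lactate and 120 and 134 in control libraries. The bin at 18 to 19 Mb, with CRTC1 and the elongation factor gene ELL, held 91 and 95 with lactate and 119 and 127 in control libraries. At 38 to 39 Mb, around the ryanodine receptor gene RYR1 and the actin crosslinker gene ACTN4, there were 63 and 61 peaks with lactate and 94 and 113 in control libraries. At 35 to 36 Mb, with LGI4 and MAG, there were 71 and 74 with lactate and 101 and 106 in control libraries. At 49 to 50 Mb, with TRPM4, there were 55 and 62 with lactate and 85 and 96 in control libraries. All 5 bins held fewer peaks in each lactate library than in either control library.

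The bins at 25 to 26 and 26 to 27 Mb held no peak in any library. They lie in the longest stretch without a peak, chr19:24178475-27747027 (3.57 Mb), in the part of the chromosome that holds its centromere. On the side of this stretch with the short arm there were 34.0 and 35.4 peaks per Mb with lactate and 46.5 and 50.3 in control libraries. On the other side the densities were close, at 34.2 and 33.9 with lactate and 48.0 and 51.4 in control libraries.

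Lactate libraries averaged fewer peaks in every bin with enough peaks to compare. Over the 34 bins with a mean of at least 20 control peaks, the ratio of lactate to control peaks ran between 0.556 and 0.904 with a median of 0.686, and the ratio of covered length between 0.409 and 0.757 with a median of 0.520. In 37 of all 49 bins both lactate libraries held fewer peaks than either control library, and in 0 bins more. For covered length the groups stood apart in this direction in 44 bins. No test was run per bin. The lactate lists were also shorter on the other chromosomes, with a median ratio of peak number of 0.699, and bins were not counted there. With equal numbers of peaks the ratio on chromosome 19 was 1.01, and the bins were not counted again under that setting.

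Peak number followed gene number across bins, with exceptions. Between mean control peaks and coding genes per bin, Pearson's r was 0.578 and Spearman's rho 0.623 over 49 bins, and 0.709 and 0.764 when zinc finger genes were left out of the gene count. These are descriptions over bins that share libraries and depth. The bin at 29 to 30 Mb went against the trend. It holds 7 coding genes, among them the cyclin gene CCNE1 and URI1, and had 40 and 39 peaks with lactate against 43 and 53 in control libraries. Of its 76 regions, 89.5% lay outside coding genes. At 30 to 31 Mb, where the zinc finger gene ZNF536 is the single coding gene, there were 37 and 35 peaks with lactate and 54 and 48 in control libraries. The bin at 33 to 34 Mb held 10 coding genes and 71 and 64 peaks with lactate against 96 and 100 in control libraries.

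**Figure D4:**
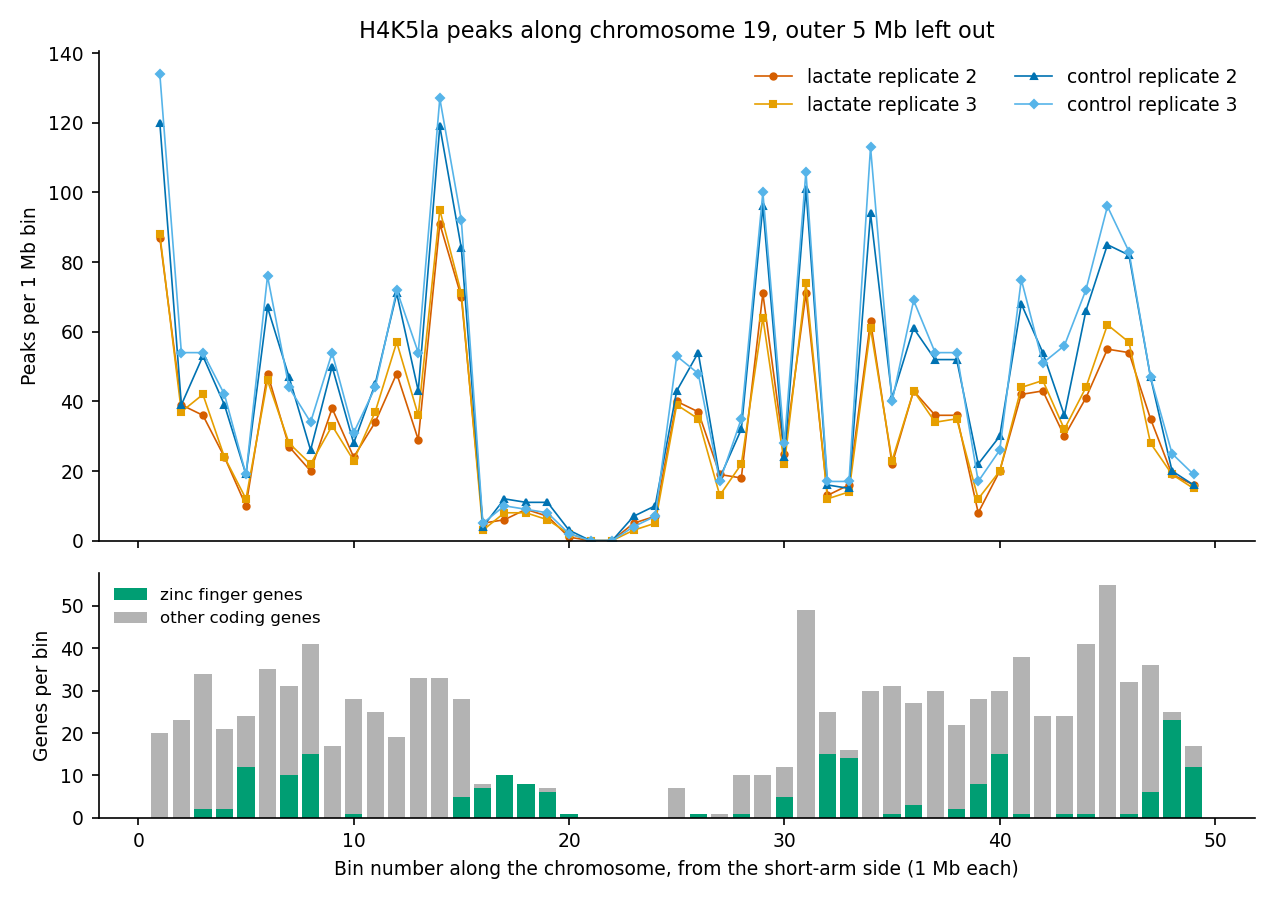
Upper panel, peaks per 1 Mb bin in each library (orange, lactate; blue, control), with bins numbered along the chromosome from the first bin inside the outer 5 Mb. Lower panel, coding genes per bin, zinc finger genes in green and others in grey. All libraries rise and fall together, between 0 peaks around the centromere and 134 in the first bin.

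The third comparison asked which regions were shared. Peaks in all 4 libraries marked 844 regions (28.5% of those on chromosome 19), against 26% of regions over all chromosomes. Regions with peaks in the 2 control libraries and no lactate peak (control-only) numbered 484 (16.4%), against 14.5% over all chromosomes. Lactate-only regions, the converse, numbered 88 (2.97%), against 3% over all chromosomes. The other 1544 regions had other combinations, such as 369 in control replicate 3 alone and 292 in control replicate 2 alone. On chromosomes 22, 20 and 17, the next in density, the share in all 4 libraries was 28.2, 32.8 and 26.1%. Their control-only share was 16.4, 14.4 and 14.6%. With equal numbers of peaks per library, chromosome 19 had 193 lactate-only and 219 control-only regions.

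The best-ranked region in all 4 libraries, chr19:30069890-30071812, lay 53278 bp from URI1, a prefoldin-like gene, outside any coding gene. Its fold enrichment was 13.5 and 19.5 with lactate and 14.7 and 12.8 in control libraries. It was followed by a region 7171 bp from ZNF569, a region in the cohesin loader gene MAU2 and 2 regions in PEPD, which encodes prolidase. PEPD as a whole held 30 and 27 peaks with lactate and 39 and 41 in control libraries over 135 kb. Among genes of the chromosome, ZNF536 (41 regions) and PEPD (40) overlapped the most, followed by RYR1 (36), SIPA1L3 (31) and CRTC1 (28). These genes were chosen after their values were seen.

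Control-only regions with the best ranks lay in ETFB (a subunit of the electron transfer flavoprotein), at LYPD3, at the shared edge of MCOLN1 and PNPLA6, in ZNF536, and 103198 bp from ZNF675. The ETFB region, chr19:51351358-51351850, was enriched 13.6-fold and 10.4-fold in control cells. The best lactate-only region was chr19:31149284-31149814, and lay 62 bp from TSHZ3, a homeobox zinc finger gene, with a fold enrichment of 13.5 and 13.4. The next lay in LIG1, which encodes DNA ligase 1, 7994 bp from ZNF875, in VSTM2B, and in the noncoding gene LINC01532. All 10 of these regions were 1044 bp or less across.

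The fourth comparison placed the peaks on genes. Summits on chromosome 19 fell mostly in the bodies of coding genes, in 74.8 and 74.1% of lactate and 74.0 and 74.4% of control peaks. The other chromosomes had 61.6 and 61.4% with lactate and 60.6 and 60.4% in control libraries. Coding genes cover 25.06 of the 48.6 Mb examined on chromosome 19. The length they cover elsewhere is not given here, so a preference for gene bodies was not tested. Summits in no gene made up 11.7 and 11.4% with lactate and 11.1 and 11.1% in control libraries (difference 0.471 percentage points, exact permutation p = 0.333). A further 7.80 and 8.48% of lactate and 9.33 and 9.63% of control summits lay within 1 kb of a coding gene's start (difference -1.34 percentage points, exact permutation p = 0.333).

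A gene was counted as having a start peak when any part of a peak reached the 1 kb on either side of its 5′ end. For 169 of the 1067 coding genes the reference gave no strand, and both gene ends were used, so their peak can lie at the 3′ end. Lactate libraries had such a peak at 145 and 156 genes and control libraries at 239 and 252, or 150.5 ± 7.78 against 245.5 ± 9.19 (SD, n = 2 each), a ratio of 0.613 (exact permutation p = 0.333). With equal numbers of peaks the ratio was 0.974. The share of peaks that touched a coding gene start was 9.34 ± 0.426% with lactate and 11.7 ± 0.324% in control libraries (difference -2.38 points, exact permutation p = 0.333). With equal numbers of peaks this difference was -0.777 points (exact permutation p = 0.667), and the groups overlapped.

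Start peaks in all 4 libraries were found at 91 genes (8.53%), against 5.48% of coding genes over all chromosomes. By rank of fold enrichment they were led by LGI4, ZNF177, PPP5C (a serine/threonine phosphatase), CEACAM4, ZNF420 and KLK13. ZNF420 held no start peak when every start listed for it was used instead. LGI4 had a fold enrichment of 11.2 and 13.2 with lactate and 12.4 and 13.6 in control libraries. At ZNF177, a KRAB zinc finger gene, the values were 12.4 and 20.7 with lactate against 9.96 and 10.9 in control libraries. PPP5C has no strand in the reference. Its peaks lay at or just beyond the end with the higher coordinate, which may not be its start. They were 1237 and 991 bp wide with lactate and 2429 and 732 bp wide in control libraries. The peak of control replicate 3 did not overlap either lactate peak, so these widths are not all of the same peak.

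Control-only start peaks marked 58 genes (5.44%), against 4.54% over all chromosomes. The best-ranked were LYPD3, PNPLA6 (a lysophospholipase of neurons and other cells), SIGLEC10, ZNF780B, SBSN (the epidermal protein suprabasin) and AKAP8L (a nuclear anchoring protein). PNPLA6 held 4 and 4 peaks elsewhere in its body with lactate, while LYPD3, ZNF780B and SBSN held 0 lactate peaks in theirs. With 3 kb windows, or with every start listed for it, PNPLA6 was no longer control-only. AKAP8L has no strand in the reference. At ZNF780B the top start peaks of the control libraries did not overlap. They lay at chr19:40055872-40056267 in control replicate 2 and chr19:40055054-40055422 in control replicate 3.

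Lactate-only start peaks marked 6 genes (0.562%), against 0.745% over all chromosomes. They were ZNF765 and its readthrough ZNF765-ZNF761, which share peaks, COPE (a coatomer subunit), TINCR, ZNF665 and COL5A3 (a collagen V chain). TINCR and ZNF665 have no strand in the reference. The TINCR peaks lay outside the gene, beyond its end with the lower coordinate, which may not be its start. ZNF765 had a fold enrichment of 8.69 and 8.30, in peaks of 815 and 330 bp. COPE had 7.21 and 6.21, in peaks shared with DDX49, and the body of COPE held 7 and 8 lactate and 8 and 7 control peaks. COPE and TINCR were no longer lactate-only with 3 kb windows, nor COL5A3 at a −log10 q of at least 5. With equal numbers of peaks there were 17 lactate-only and 24 control-only genes.

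Zinc finger genes were set beside the other coding genes of the chromosome. Start peaks were at 14.8 and 16.9% of the 189 genes with lactate and 19.6 and 21.7% in control libraries, beside 13.3 and 14.1% with lactate and 23.0 and 24.0% in control libraries for the other 878 genes. The zinc finger share was thus the higher in both lactate libraries and the lower in both control libraries, a difference that was not tested. Start peaks in all 4 libraries were at 14 zinc finger genes (7.41%), with 3 lactate-only and 9 control-only. Of these 3, ZNF765 and its readthrough share peaks. The other genes had 77 in all 4 libraries (8.77%), with 3 lactate-only and 49 control-only. Over the promoter sequences the order was the reverse. Peaks of all 4 libraries lay over 8.25% of 206 zinc finger promoters and 4.52% of 974 other promoters. Neither difference was tested. The bodies of zinc finger genes held few peaks, 11.01 and 11.3 summits per Mb with lactate and 13.8 and 13.1 in control libraries. The bodies of other coding genes held 60 and 60.7 per Mb with lactate and 84.0 and 92.4 in control libraries.

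The density in zinc finger bodies was thus 0.184 and 0.187 of that in other bodies with lactate and 0.164 and 0.142 in control libraries. The lactate values were above the control values by 0.0322 (exact permutation p = 0.333), and by 0.0286 with equal numbers of peaks. At gene starts lay 25 and 24.3% of the body summits of zinc finger genes with lactate and 28.2 and 29.6% in control libraries, against 6.85 and 7.81% with lactate and 8.34 and 9.23% in control libraries for other genes. With equal numbers of peaks the zinc finger shares were 25 and 24.3% with lactate and 26.3 and 25% in control libraries, so the groups met at 25%. ZNF536, which encodes a repressor in neurons and is far longer than the other members at 488 kb, alone held 19 and 19 of these peaks with lactate and 28 and 23 in control libraries. The 16 bins with at least 5 zinc finger genes had a median of 15.25 lactate and 19.25 control peaks, and the other 31 bins with peaks a median of 38.0 lactate and 52.5 control peaks. Many zinc finger genes belong to a duplicated family, but the class was matched by gene symbol and how alike its members are was not measured. How reads that align to several places were treated is not given in the sources used here. The part of such reads in the low density was therefore not tested.

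The kallikrein genes, a family of secreted serine proteases that includes prostate-specific antigen, were the densest class examined. All 15 lie in chr19:50819146-51084210, and this stretch of 265 kb held 19 and 23 peaks with lactate and 27 and 24 in control libraries, a ratio of 0.824. Start peaks in all 4 libraries were at 7 of them (46.7%), which are KLK1, KLK4, KLK6, KLK7, KLK9, KLK10 and KLK13. This count includes KLK1, whose peak lies at an end that may not be its start. KLK5 and KLK11 were control-only (KLK5 not with equal numbers of peaks or 3 kb windows), and KLK3, KLK8 and KLK14 had other combinations. KLK13 had a fold enrichment of 7.33 and 7.85 with lactate and 13.6 and 13.6 in control libraries. At KLK1, which has no strand in the reference and whose peak lies at the end away from its neighbour KLK15, it was 11.2 and 12.7 with lactate and 9.22 and 7.92 in control libraries. In KLK10 all 4 libraries had 3 peaks. Bodies held 167 and 176 summits per Mb with lactate and 195 and 186 in control libraries. Members share a stretch of DNA and some share a peak, so they are not independent.

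Start peaks in all 4 libraries were at 4.55% of carcinoembryonic antigen and pregnancy glycoprotein genes, 14.3% of siglec genes and 16.7% of cytochrome P450 genes, against 8.53% of all coding genes of the interval. Of 22 carcinoembryonic antigen and pregnancy glycoprotein genes, CEACAM4 had one in all 4 libraries, and 18 had none. Its fold enrichment was 10.7 and 10.2 with lactate and 10.4 and 9.35 in control libraries. Among 14 siglec genes, MAG (an adhesion protein of myelin) and SIGLEC6 had one in all 4 libraries and SIGLEC10 in the control libraries alone. At SIGLEC6 the top start peak of control replicate 2 did not overlap those of the lactate libraries. MAG had 9.49 and 8.95 with lactate and 7.81 and 9.14 in control libraries. CYP4F2 and CYP4F11, fatty acid hydroxylases of liver, were the members of 12 cytochrome P450 genes with start peaks in all 4 libraries. In CYP4F2 the fold enrichment was 6.04 and 5.76 with lactate and 7.84 and 7.57 in control libraries. All 19 olfactory receptor genes were without a peak in start or body in every library. Of 6 galectin genes, LGALS4 had a start peak in the control libraries alone. With equal numbers of peaks LGALS4, SIGLEC6 and CYP4F11 no longer had these patterns.

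**Figure D5:**
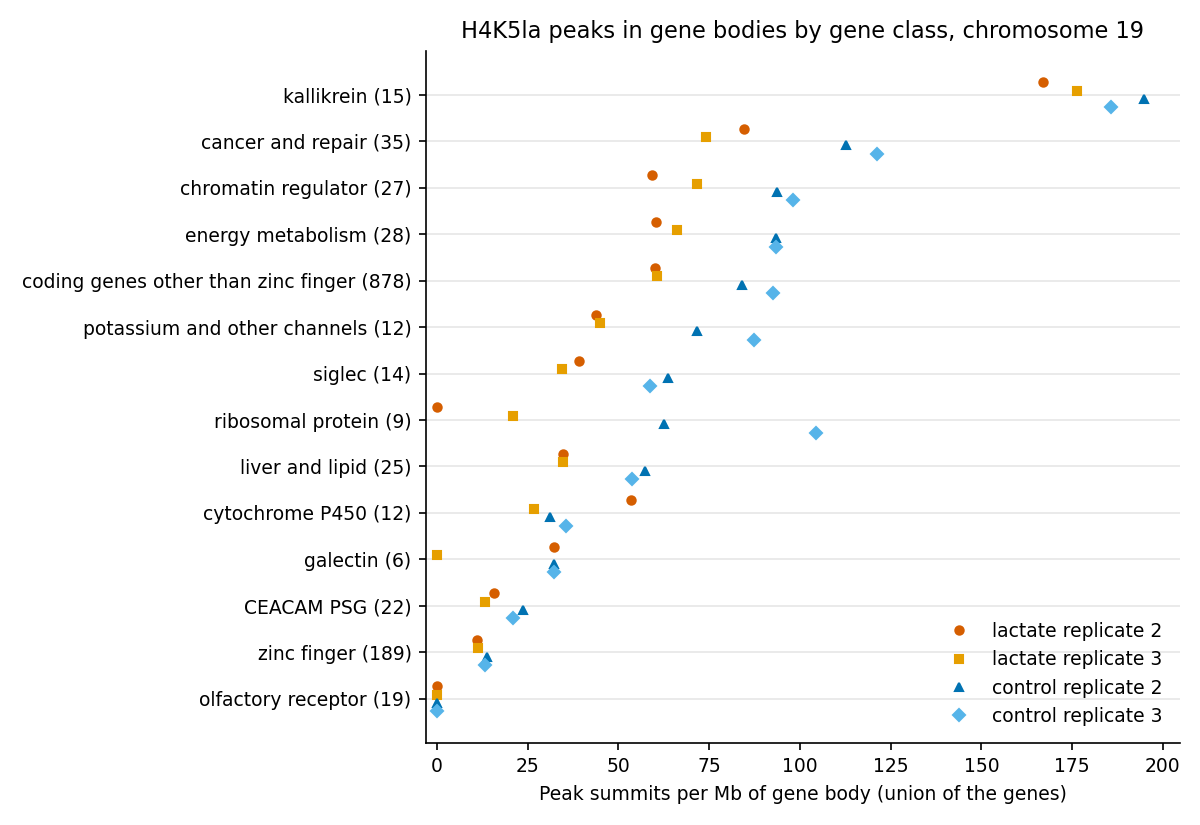
Peak summits per Mb of gene body for each class of coding genes on chromosome 19 (number of genes in brackets), one point per library, orange for lactate and blue for control. Kallikrein genes are highest, at 167 to 195 per Mb, and olfactory receptor genes have 0, while zinc finger genes lie between 11.01 and 13.8.

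Over all 1067 coding genes, 395 (37.0%) held a body peak in all 4 libraries and 91 (8.53%) a start peak in all 4. Of 27 chromatin regulator genes, 18 held a body peak in all 4 libraries and 0 a start peak in all 4, with AKAP8L control-only. When every listed start was used, 1 of them had a start peak in all 4. These 27 genes cover 1.13 Mb, against 25.06 Mb for all 1067. Their bodies held 59.3 and 71.7 summits per Mb with lactate and 93.8 and 98.2 in control libraries. For coding genes other than zinc fingers the values were near these, at 60 and 60.7 with lactate and 84.0 and 92.4 in control libraries. SMARCA4 held 10 and 11 body peaks with lactate and 15 and 17 in control libraries. CARM1, an arginine methyltransferase, held 10 and 8 with lactate and 10 and 11 in control libraries, whose values meet. DNMT1, the maintenance DNA methyltransferase, held 2 and 3 with lactate and 9 and 6 in control libraries. Of 35 cancer and repair genes, PLAUR (the urokinase receptor) had a start peak in all 4 libraries. AXL, RELB, RRAS and PPP2R1A (11.4% of the list) had one in the control libraries alone, against 5.44% of all coding genes of the interval. AXL and PPP2R1A lost this pattern with equal numbers of peaks. AXL also lost it with 3 kb windows, and PPP2R1A at a −log10 q of at least 5. RELB and RRAS were not followed singly across settings. Over the interval, 24 of 58 control-only genes kept the pattern with equal numbers of peaks. The top start peaks of AXL in the control libraries did not overlap each other. AKT2, a kinase of insulin signalling, held 12 and 10 body peaks with lactate and 15 and 16 in control libraries.

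Of 28 energy metabolism genes, GAPDHS, the glycolytic dehydrogenase of sperm, had a start peak in all 4 libraries, and ETFB, which shares its window with CLDND2, in the control libraries alone (not with equal numbers of peaks). GAPDHS had a fold enrichment of 9.20 and 9.21 with lactate and 6.85 and 5.68 in control libraries. GPI, which encodes glucose-6-phosphate isomerase, had no start peak, and its body held 3 and 2 peaks with lactate and 3 and 3 in control libraries. Of 25 liver and lipid genes, 0 had a start peak in all 4 libraries, but 3 had one when every listed start was used. Over all 1067 coding genes these counts were 91 and 109. PNPLA6 had a start peak in the control libraries alone, though not with 3 kb windows or every listed start. A body peak in all 4 libraries was held by 11 of the 25 genes. INSR, the insulin receptor gene, held 1 and 2 body peaks with lactate and 4 and 1 in control libraries.

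In a list of 12 channel genes, RYR1, the calcium release channel of muscle, and KCNN4, a calcium-activated potassium channel, had start peaks in all 4 libraries. The RYR1 start peak was 443 and 444 bp wide with lactate and 376 and 394 bp in control libraries, with a fold enrichment of 14.9 and 12.1 against 6.59 and 7.82. TRPM4, a cation channel, had one in the control libraries alone, though not with 3 kb windows. Bodies of channel genes held 43.7 and 45.0 summits per Mb with lactate and 71.5 and 87.4 in control libraries.

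Among noncoding genes, 69 of 368 long noncoding RNA genes (18.8%) were overlapped by a peak in all 4 libraries, with 6 lactate-only and 14 control-only. Of 67 microRNA genes, 10 (14.9%) had a peak in all 4 libraries, MIR7974 was lactate-only, and none was control-only. Pseudogenes were overlapped in all 4 libraries in 10 of 400 cases (2.50%), and 0 of 26 small nuclear RNA genes held a peak in any library. For small nucleolar RNA genes, 0 and 0 of 24 had a peak with lactate against 6 and 3 in control libraries. Of these genes 2 were control-only and 5 had other combinations. The control lists are longer, and noncoding genes were counted neither on other chromosomes nor with equal numbers of peaks. A difference between groups was therefore not tested for these classes.

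Promoters under a peak were compared by their base composition. The 61 promoters of coding genes with a peak over their 300 bases in all 4 libraries had a median GC content of 64.7% and a median ratio of observed to expected CG of 0.614. The 38 with a peak in the control libraries alone had 63.5% and 0.489. The 952 promoters with no peak in any library had 62.5% and 0.736. GGGCGG was found in 68.9% of promoters with a peak in all 4 libraries and in 64.2% of those with none. CCAAT was found in 31.1 and 38.2% of these promoters, and TATAAA in 3.28 and 6.51%. Both strands were searched, and these shares are descriptions of the letters in these windows.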

How the data were processed

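H4K5la ChIP-seq peak lists of 2 lactate and 2 control libraries were analysed. MACS2 2.2.6, Bowtie2 2.3.4.2 and the build hg38 are named per the submitters' processing notes, with Picard 2.18.11, SAMtools 1.9, Trimmomatic 0.38 and FastQC 0.11.7. Each list holds the peaks of 1 library, and the settings of the peak caller are not given in the sources used here. For each peak the authors deposited a fold enrichment over background, −log10 p and q-values, and a whole-number score. In every list the deposited q-values were all below 0.01.

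Python 3.11.15 with numpy 2.4.6, pandas 2.3.3 and matplotlib 3.10.9 was used. Genes, strands, promoters and microRNAs came from RefSeq tables of GRCh38.p14. Strand was known for 898 of 1067 coding genes, from the promoter table. Groups were compared by a two-sided exact permutation test over the 6 assignments of the 4 libraries. Bins were filled by peak summits, and regions by their middle. The code was tested on simulated peaks.

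The members, the 13 gene lists and the naming rule were chosen with earlier results of these data known. Named genes were the 6 best by mean rank of fold enrichment with start peaks in all 4 libraries, control-only or lactate-only, and from each list up to 3 in all 4 libraries and 2 in 1 treatment. Named regions were the 5 best of each kind and the 5 widest in control libraries, and named bins the 5 richest and those with no peak. Genes given for their body peaks, the microRNAs and other bins were chosen after their values were seen. Of the named lists, PLIN4, PLIN5, SLC27A5, KDM4B and ZBTB7A lie outside the interval in whole or in part. The other settings tried were a stricter threshold, equal numbers of peaks, the whole chromosome, other overlaps, windows and joining, single libraries left out, and a replicate block. Some genes of these lists are not reported here.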

Additional observations from a re-analysis of the deposited data

How the results depend on the processing

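With 37951 peaks per library the ratio of peak number on chromosome 19 turned to 1.01, and there were 193 lactate-only and 219 control-only regions. The share of a library's peaks on chromosome 19 had no stable direction: its difference was 0.17 percentage points at a −log10 q of at least 5, 0.242 with equal numbers of peaks, and ran between -0.241 and 0.161 when single libraries were left out. A reciprocal overlap of 50% gave 216 lactate-only regions. Leaving out single libraries gave 139 to 202 lactate-only and 639 to 887 control-only regions, because a group then has a single library. Ratios of covered length (0.509 to 0.688) and of genes with a start peak (0.591 to 0.974), and the differences in median width and in the share of peaks at gene starts, kept their direction under every setting run. The settings on every start listed in the promoter table were chosen after seeing the data. The labels give no meaning to the shared replicate numbers, and only 2 pairs exist. With the replicate block the ratio of peak number was 0.699 and that of covered length 0.527, and the exact sign-flip p was 0.5 for each, the smallest 2 pairs allow. It changed no direction.

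Of 38 named genes, 35 kept their pattern at a −log10 q of at least 5, 31 with equal numbers of peaks, 31 with 3 kb windows and 36 with every listed start. Signal below the threshold is not seen in a peak list, and the lists give no depth.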
